A study of Mus musculus with 6 samples.

Results

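The receptor tyrosine kinases and the ephrins were examined in MC38r and MC38, a pair of mouse colorectal cancer cell lines that differ in sensitivity to EPA, the fatty acid eicosapentaenoic acid. MC38r cells are EPA-resistant, with an IC50 raised 6-fold after continuous exposure, and MC38 cells are EPA-sensitive. Members were taken by gene name: Eph receptors, ephrins, and the receptors for EGF, neuregulins, FGF, PDGF, VEGF, angiopoietins, insulin and IGF, HGF, GAS6, neurotrophins, GDNF and collagen. They came to 109 probes of 53 genes, out of 45281 probes on the array, and all 53 names were found among RefSeq symbols. Cells of each line reached 70% confluence in RPMI medium containing 10% foetal calf serum, and total RNA was hybridised to Illumina MouseWG-6 bead arrays, 3 per line. The comparison is of basal expression, and with 1 line of each kind the change in EPA sensitivity cannot be told apart from any other difference between the lines.

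Receptor tyrosine kinases are single-pass membrane proteins with a kinase domain inside the cell. Ligand binding brings receptors together, they phosphorylate each other, and the phosphotyrosines recruit adaptors that switch on the Ras-MAPK and PI3K-AKT pathways. Eph receptors are unusual in that their ligands, the ephrins, are themselves held in the membrane of a neighbouring cell, by a lipid anchor in the A class and a transmembrane segment in the B class, so that contact signals into both cells. In the intestine, EphB receptors and ephrin-B ligands sort cells along the crypt, and EGFR family receptors drive epithelial growth.

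All 6 arrays lay on 1 chip, MC38r on sections D to F and MC38 on sections A to C, so that chip position and line cannot be told apart. Between 29% and 30.5% of probes were above background on the MC38r arrays and between 28.3% and 30.1% on the MC38 arrays. The housekeeping control signal was lower on MC38r arrays (10450 ± 205, SD, n = 3) than on MC38 arrays (12183 ± 654), and its part in the results was not tested. MC38r replicate 1 and MC38 replicate 2 deviated from their own lines in the same way (r = 0.62 across probes of their deviations from the line means, where probes are not independent replicates). The labels do not say whether replicates were separate cultures, and if they were technical repeats the p-values cover technical spread alone. Of 9 epithelial markers, 8 (Epcam by its older name Tacstd1, Krt18, Krt19, Krt20, Cdh1, Cldn3, Cldn4 and Cldn7) went undetected on all 6 arrays, although the lines are labelled colorectal. The colon markers Cdx2 and Lgals4 were detected on each of the 3 MC38r arrays and on no MC38 array, and Vil1, Muc2 and Gpa33 were detected on none.

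Most of the family was not detected. A probe counted as measured when its detection p-value was under 0.01 on at least 3 of the 6 arrays, which held for 25 of the 109 probes and for 20 of the 53 genes. A further 6 genes (Epha3, Epha4, Epha8, Fgfr2, Flt3 and Kdr) had a probe above background on 1 or 2 arrays, and 27 genes had none on any array. Among those 27 were Epha1, Epha5, Epha6, Epha7, Epha10, Ephb1, Ephb3, Ephb6, Efna2, Efna3, Efnb2, Erbb3, Erbb4, Fgfr3, Fgfr4, Insr, Kit, Csf1r, Flt4, Tek, Tie1, Mst1r, Ret and Alk. Thus none of the 8 EphA receptors among the members, neither TIE receptor, and neither RET nor ALK could be compared between the lines. The members do not include every EphA receptor. A probe that is not above background sets only an upper limit on its transcript, and absence is not shown.

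**Figure D1:**
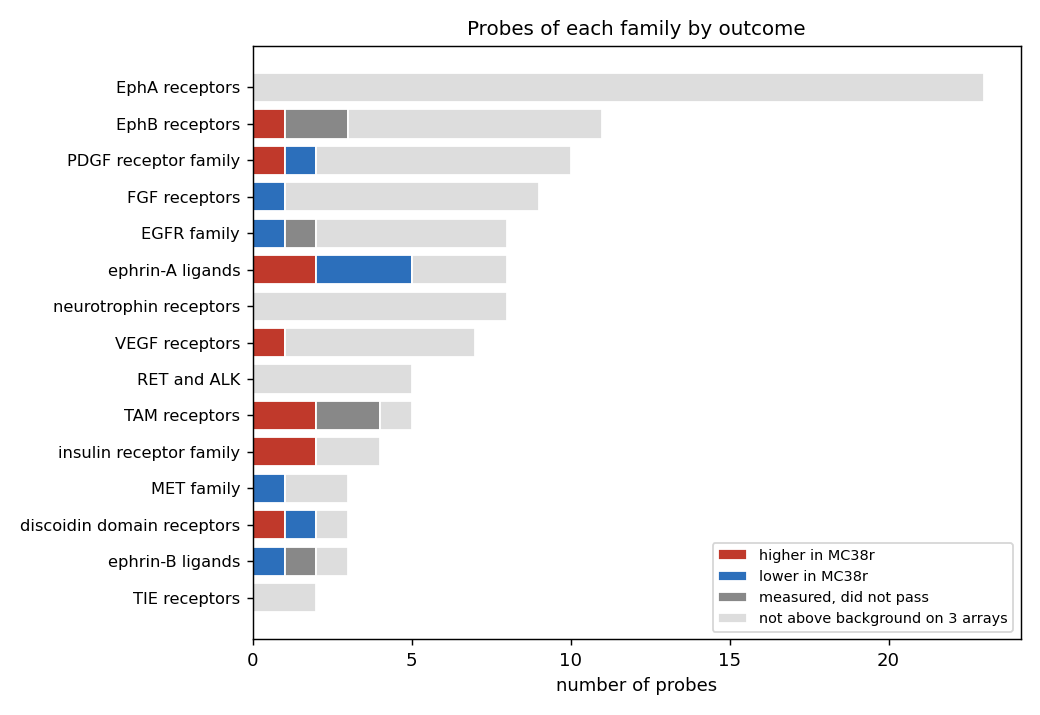
Number of probes in each family (horizontal bars, 109 probes in all), split into those higher in MC38r, lower in MC38r, measured without passing the test, and not above background on at least 3 of the 6 arrays. The 23 EphA probes all fall in the last class.

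Among the measured probes, receptors changed in both directions. Signals are normalized log2 values, each fold change is MC38r over MC38, and a probe passed when its limma p-value, adjusted by the Benjamini-Hochberg method over all 13990 measured probes of the array, was under 0.05. Of the 25 probes, 10 were higher in MC38r, where 28.1% of all measured probes were, and 9 were lower, where 27.0% were. In either direction that is 19 probes, against 55.1% of all measured probes. The higher probes belong to 8 genes (Flt1, Ephb2, Efna5, Mertk, Pdgfra, Igf1r, Ddr2 and Axl) and the lower ones to 8 others (Egfr, Efnb1, Met, Efna4, Ddr1, Pdgfrb, Fgfr1 and Efna1). The same 19 probes had no overlap between the arrays of the lines, which held for 61.5% of all measured probes. Of the measured probes, 3 were above background in MC38 alone and 1 in MC38r alone, and these passed the filter through the line in which they were high. Others, such as Ephb2, Mertk, Efna1 and Fgfr1, were above background on only some arrays of the other line. They too needed the line in which they were high to pass. Only 11 of the 25 probes were above background on all 6 arrays, so the counts are a description. The median log2 change was 0.04 over the 25 probes and 0.03 over all measured probes, and the range ran from -1.93 to 1.96. Between 25 and 81 beads stood behind each of these probes on an array.

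**Figure D2:**
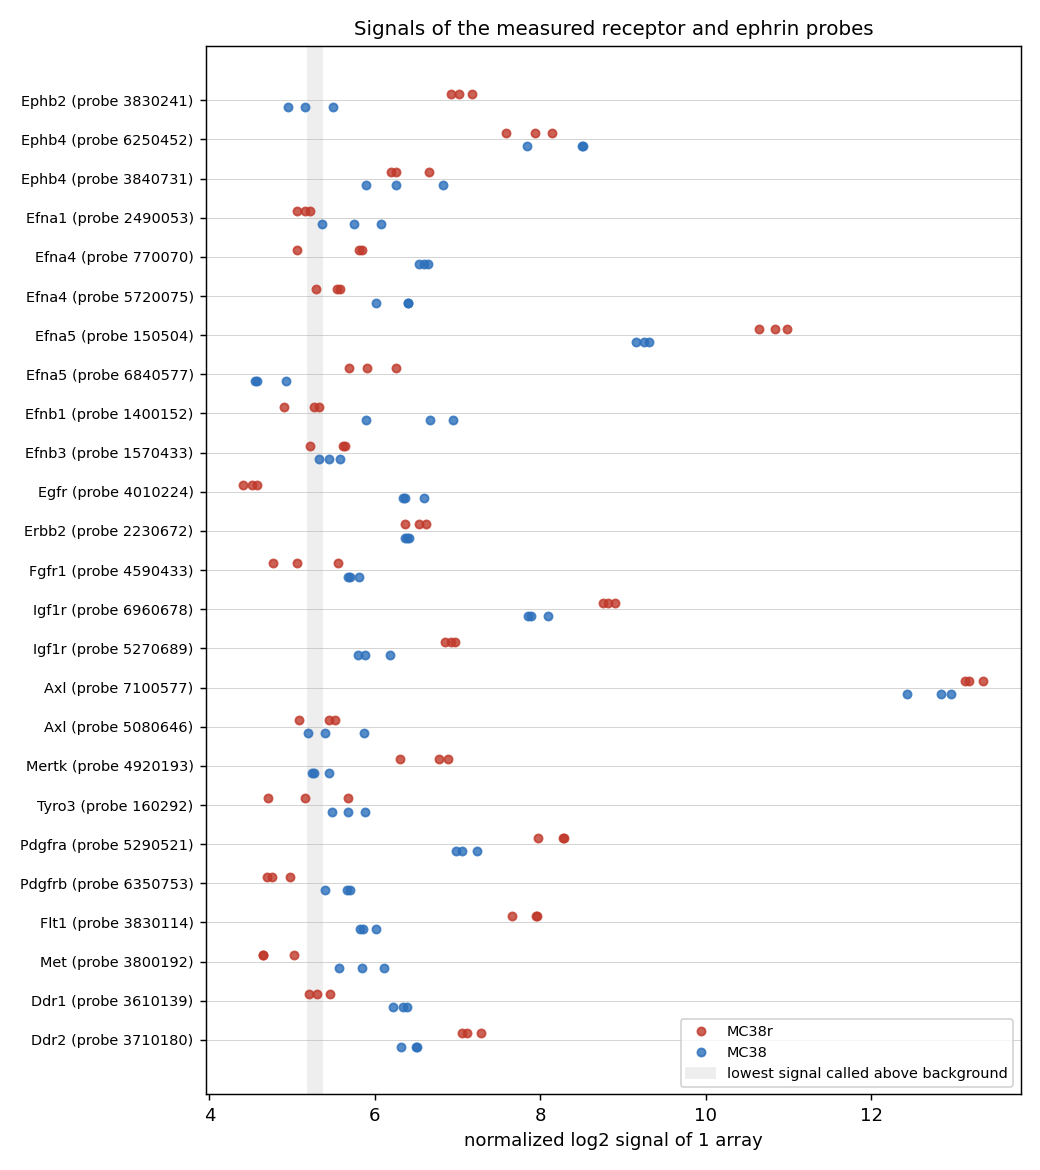
Normalized log2 signal (horizontal axis) of each measured probe on every array, MC38r points above MC38 points in each row; the grey band spans the lowest signal called above background on the 6 arrays (5.19 to 5.36). Flt1, Ephb2, Efna5 and Igf1r sit to the right in MC38r, while Egfr, Met and Pdgfrb fall to or below the grey band there.

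The fitted changes of the members ran from that of Egfr to that of Flt1, and the 250 bases before the RefSeq start of each of these genes are shown for that reason. Their place at the ends of the range depends on the processing: with the authors' deposited series values Efna5 (1.53) was above Flt1 (1.46), and Efnb1 (-1.05) and Met (-0.85) were below Egfr (-0.73). They come from the RefSeq promoter table (GRCm38.p6) and are printed 5′ to 3′ on the strand of the gene, chr5:147726012-147726261 on the minus strand for Flt1 and chr11:16751953-16752202 on the plus strand for Egfr. Capitals mark motif matches from a search of both strands, so that a GC box on the other strand reads as its reverse complement.
Flt1: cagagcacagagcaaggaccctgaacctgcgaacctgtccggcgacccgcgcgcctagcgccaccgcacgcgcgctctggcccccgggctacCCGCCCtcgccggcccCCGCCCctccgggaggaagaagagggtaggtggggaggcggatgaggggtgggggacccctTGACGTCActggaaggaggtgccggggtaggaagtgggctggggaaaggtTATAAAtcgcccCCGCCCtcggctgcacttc
Egfr: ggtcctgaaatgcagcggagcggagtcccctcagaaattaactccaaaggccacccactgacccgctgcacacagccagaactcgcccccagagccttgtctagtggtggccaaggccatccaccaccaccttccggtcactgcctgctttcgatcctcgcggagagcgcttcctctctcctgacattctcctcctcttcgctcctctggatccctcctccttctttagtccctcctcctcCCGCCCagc
The Flt1 window holds 3 GC boxes (GGGCGG, found in 32.7% of 32851 promoter windows of this length), 1 cAMP response element (TGACGTCA, 1.55%) and 1 TATA box (TATAAA, 12.4%) whose first base lies 31 bases before the start. The Egfr window holds 1 GC box and neither of the other motifs just named. No AP-1 element (TGANTCA, 6.75%), interferon-stimulated response element (2.98%) or E-box (CACGTG, 6.02%) was found in either window. GC content was 70.4% for Flt1 and 60.8% for Egfr, against a median of 52.4% over all windows, and the windows held 23 and 11 CpG dinucleotides, against a median of 6. A match describes the letters and is no evidence of a bound factor.

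Among the members, the measured Eph receptors were Ephb2 and Ephb4. EphB2 is the receptor that keeps progenitor cells at the base of the intestinal crypt. Ephb2 (probe 3830241) had signals of 6.92, 7.02 and 7.18 on the MC38r arrays, against 5.5, 5.15 and 4.95 on the MC38 arrays. Every MC38r array was above background and above every MC38 array, and only 1 MC38 array was above background. Ephb2 was 3.58-fold higher as fitted (log2 change 1.84 ± 0.17, SE, adjusted p = 1.6e-05). The other 3 Ephb2 probes were not measured, and 1 of these was above background on a single MC38r array. Ephb4, a receptor for ephrin-B2 in vessels and epithelium, had signals of 7.59, 8.14 and 7.94 in MC38r against 8.5, 7.84 and 8.52 in MC38 by one probe. These ranges overlap and the probe did not pass (log2 change -0.4 ± 0.22, adjusted p = 0.15), although it did without MC38 replicate 2 (-0.62, adjusted p = 0.013) and without both deviating arrays (-0.47, adjusted p = 0.014). The other measured Ephb4 probe stood at 6.37 ± 0.25 in MC38r and 6.33 ± 0.47 in MC38 (SD, n = 3 each).

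The ephrins moved apart from one another. Efna5 encodes ephrin-A5, a lipid-anchored ligand that binds EphA receptors and also EphB2. Its probe 150504 had signals of 10.99, 10.64 and 10.84 in MC38r, against 9.16, 9.25 and 9.31 in MC38. The lines are well apart, and the level was 3-fold higher in MC38r (log2 change 1.59 ± 0.14, adjusted p = 1.3e-05). A dimmer Efna5 probe (6840577) had 6.26, 5.69 and 5.91 in MC38r and 4.58, 4.93 and 4.55 in MC38, where no array detected it. With each MC38 array set at its lowest detected signal, or at the probe's own where higher, that probe was at least 1.59-fold higher (adjusted p = 3e-04). Such a bound holds for the background correction used.

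Efna4 and Efna1, by contrast, fell. Efna4 probe 770070 had 5.81, 5.84 and 5.06 in MC38r against 6.53, 6.64 and 6.6 in MC38, and probe 5720075 had 5.54, 5.29 and 5.58 against 6.4, 6.02 and 6.4. Both probes were lower on every MC38r array, by 2.03-fold (adjusted p = 0.0024) and 1.75-fold (adjusted p = 0.0018). Efna1, which encodes a ligand first found as a TNF-induced endothelial product, had 5.06, 5.22 and 5.16 in MC38r, above background on 1 array, against 5.75, 5.36 and 6.08 in MC38. The gap between the lines is narrow (log2 change -0.58 ± 0.18, adjusted p = 0.023), and Efna1 missed the threshold when MC38r replicate 1 or 3, or MC38 replicate 1 or 3, was left out (adjusted p of 0.06 to 0.081). In RefSeq, Efna1, Efna3 and Efna4 are immediate neighbours, and Efna3 was not above background on any array.

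In the B class, Efnb1 encodes a transmembrane ephrin that is a main ligand of EphB2. It had 4.9, 5.27 and 5.32 in MC38r against 6.94, 5.89 and 6.67 in MC38. All MC38r arrays lie below all MC38 arrays, with 2 of the 3 MC38r arrays above background, and the level was 2.53-fold lower as fitted (log2 change -1.34 ± 0.25, adjusted p = 0.0017). Efnb3 was at 5.49 ± 0.25 in MC38r and 5.45 ± 0.12 in MC38 and did not pass (adjusted p = 0.85). Thus the transcript of one EphB2 ligand, Efnb1, fell while those of the receptor and of ephrin-A5 rose.

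In the EGFR family the receptor transcript Egfr fell below detection. Egfr (probe 4010224) had signals of 4.41, 4.52 and 4.57 on the MC38r arrays, none above background, against 6.37, 6.6 and 6.34 on the MC38 arrays, all above it. It was at least 2.29-fold lower in MC38r (adjusted p = 2.4e-06). The other 3 Egfr probes were not above background on any array in either line, so the result rests on 1 probe. With the gene values that the authors deposited as the series matrix, the Egfr change was -0.73 on the log2 scale and still passed (adjusted p = 0.00031). Erbb2, the co-receptor that has no ligand of its own, had 6.36, 6.54 and 6.62 in MC38r against 6.39, 6.36 and 6.41 in MC38. These overlap, and the change was 0.12 ± 0.13 on the log2 scale (adjusted p = 0.46). The neuregulin receptors Erbb3 and Erbb4 were not above background on any array.

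Fgfr1, which binds FGF2 and other FGFs of mesenchymal cells, had 5.55, 4.77 and 5.06 in MC38r, above background on 1 array, against 5.67, 5.7 and 5.81 in MC38. It was 1.52-fold lower as fitted (adjusted p = 0.025), but the call was lost without MC38r replicate 2 or 3, or MC38 replicate 1 or 3 (adjusted p of 0.052 to 0.094). Fgfr2, the epithelial receptor for FGF7 and FGF10, was above background on 2 MC38 arrays and no MC38r array, too few to be tested.

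Igf1r, the receptor through which IGF1 and IGF2 promote growth and survival, was higher by both of its probes. Probe 6960678 had 8.76, 8.9 and 8.82 in MC38r against 7.85, 7.89 and 8.09 in MC38, and probe 5270689 had 6.97, 6.85 and 6.92 against 5.8, 6.18 and 5.88. Neither pair of groups overlaps. The changes were 1.84-fold (adjusted p = 0.00037) and 1.95-fold (adjusted p = 0.00038), so the probes differ little. Insr, the insulin receptor, was not above background on any array by either probe.

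Among the TAM receptors, which bind the phosphatidylserine-bridging ligands GAS6 and protein S, Mertk rose most. Mertk (probe 4920193) had 6.88, 6.3 and 6.78 in MC38r against 5.26, 5.44 and 5.24 in MC38, where 1 array was above background. The MC38r arrays all lie higher, by 2.53-fold as fitted (adjusted p = 0.00016). Axl (probe 7100577) had 13.14, 13.36 and 13.19 in MC38r against 12.97, 12.43 and 12.85 in MC38, a change of 1.39-fold (adjusted p = 0.033). This difference is near the spread between arrays, and the call was lost without MC38r replicate 2 or 3, or MC38 replicate 2 or 3 (adjusted p of 0.051 to 0.11). A dim Axl probe did not pass (log2 change -0.14, and 0.06 without MC38 replicate 3). Tyro3 stood at 5.18 ± 0.49 in MC38r and 5.67 ± 0.2 in MC38 and did not pass (adjusted p = 0.1), although it did without MC38r replicate 1 (log2 change -0.74, adjusted p = 0.011) and without both deviating arrays (-0.64, adjusted p = 0.013). TAM receptors are also macrophage genes, and 6 of 9 myeloid markers (Emr1, Itgam, Lyz2, Lyz, Ptprc and Fcgr1) were detected on no array, while Cd14 rose (1.34-fold) and Cd68 fell (1.56-fold as fitted). The summed deposited signal of the myeloid list was 205 to 232 on MC38r arrays and 164 to 213 on MC38 arrays, and its part in the Mertk result was not tested.

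The PDGF receptors moved in opposite directions. Pdgfra, whose product binds PDGF-A and PDGF-C chains among others, had 7.97, 8.29 and 8.28 in MC38r (probe 5290521) against 7.24, 7.05 and 6.98 in MC38. The groups do not overlap, and the level was 2.13-fold higher (adjusted p = 2e-04). Pdgfrb, the receptor for PDGF-B and a marker of pericytes, had 4.76, 4.69 and 4.98 in MC38r, none above background, against 5.4, 5.7 and 5.66 in MC38, all above it. It was at least 1.27-fold lower (adjusted p = 0.0016). RefSeq places Kit next to Pdgfra and Kdr next to Kit, and Csf1r next to Pdgfrb, and these neighbours of the changed genes were not measured: Kit and Csf1r were detected on no array, and Kdr was detected on 1 MC38 array.

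Fibroblast markers also differed between the lines: of 4 measured genes, Col1a2 and Col3a1 fell, Dcn rose and Col1a1 did not pass. Their summed deposited signal over 6 markers was 252 to 284 on MC38r arrays and 242 to 336 on MC38 arrays, and its part in the PDGF receptor results was not tested. In RNA from a whole culture, fewer cells of a type and less RNA per cell cannot be told apart.

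Flt1, which encodes a VEGF receptor best known from endothelium and trophoblast, rose. Flt1 (probe 3830114) had 7.96, 7.95 and 7.66 on the MC38r arrays against 5.82, 6.01 and 5.86 on the MC38 arrays, and all 6 were above background. Every MC38r array exceeded every MC38 array, by 3.89-fold on average (log2 change 1.96 ± 0.14, adjusted p = 3.2e-06). A second Flt1 probe was detected on no array. Of 9 endothelial markers, 7 (Pecam1, Cdh5, Vwf, Emcn, Esam, Cldn5 and Robo4) were not detected on any array, and the other 2, Egfl7 and Eng, were lower in MC38r. The summed deposited signal of the list was 137 to 170 on MC38r arrays and 241 to 369 on MC38 arrays, and its part in the Flt1 result was not tested.

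Met, the receptor for hepatocyte growth factor that drives scattering and invasion, had 4.65, 5.02 and 4.65 in MC38r (probe 3800192), none above background, against 5.57, 5.84 and 6.11 in MC38, all above it. It was at least 1.52-fold lower (adjusted p = 0.00071). The collagen receptors split: Ddr1, the epithelial member, had 5.46, 5.3 and 5.2 in MC38r against 6.39, 6.22 and 6.34 in MC38, and Ddr2, the mesenchymal member, had 7.11, 7.28 and 7.06 against 6.51, 6.32 and 6.5. Ddr1 was 2-fold lower as fitted (adjusted p = 0.00019) and Ddr2 1.63-fold higher (adjusted p = 0.0015), with no overlap for either gene. A second Ddr1 probe was above background on 1 MC38 array only.

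**Figure D3:**
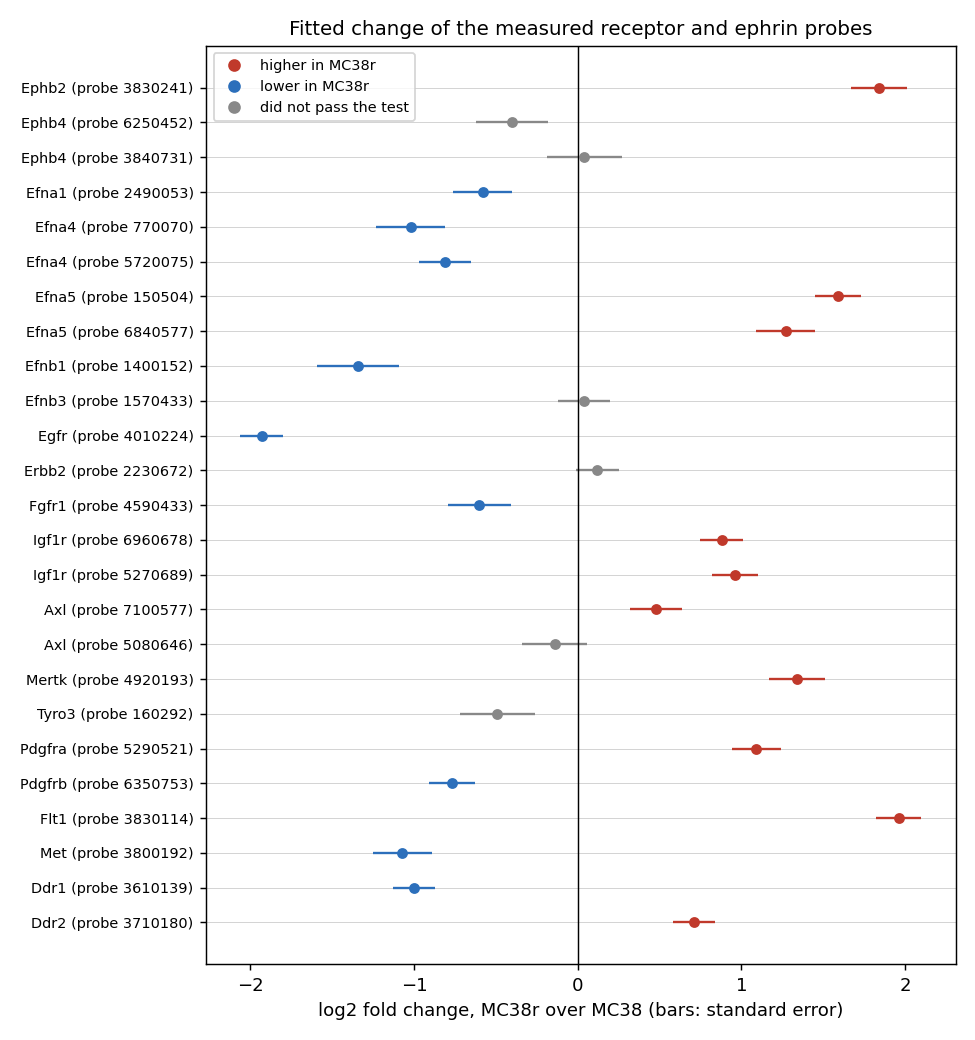
Fitted log2 fold change of MC38r over MC38 (horizontal axis, bars show the standard error) for the 25 measured probes, coloured by outcome. Changes run from -1.93 for Egfr to 1.96 for Flt1. The paired probes of Efna4, Efna5 and Igf1r lie close together, while those of Axl and of Ephb4 have opposite signs.

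The ligands of these receptors were examined next, by the brightest measured probe of each gene. Of 52 ligand genes, 25 were measured, of which 10 were higher in MC38r and 12 were lower, where 28.6% and 27.3% of all genes by the same choice of probe were (55.8% in either direction). The median log2 change of the list was -0.25, against 0.03 over all genes measured. All 12 falls and 7 of the 10 rises were by 2-fold or more as fitted. Over all genes measured, 1233 of 2786 falls and 1185 of 2917 rises were that large. The largest changes in each direction were named by a rule, and the others were chosen after their values were seen so that each receptor could be set beside its ligands.

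The 4 ligands of the EGFR family that were measured were all higher in MC38r, where 28.6% of all genes were. The other EGFR family ligands on the list were not measured. Heparin-binding EGF, Hbegf, had 11.24, 11.31 and 11.18 in MC38r against 8.98, 9.04 and 9.06 in MC38, 4.65-fold higher (adjusted p = 5.3e-07). Amphiregulin, Areg, had 10.12, 10.44 and 10.38 against 7.99, 8.26 and 8.23, 4.44-fold higher (adjusted p = 2.3e-06). Betacellulin, Btc, was 4.35-fold higher (7.67 ± 0.16 against 5.55 ± 0.04, adjusted p = 1.3e-06), and neuregulin 1, Nrg1, a ligand of ErbB3 and ErbB4, was 4.25-fold higher (9.42 ± 0.13 against 7.33 ± 0.32, adjusted p = 1.1e-05). These 4 rose while the Egfr transcript, by its 1 measured probe, went undetected on the MC38r arrays. Erbb3 and Erbb4 were undetected on every array of both lines, and Erbb2 was detected in both lines and did not pass.

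Fibroblast growth factors split. Fgf10, an epithelial growth factor made by mesenchyme, had 7.98, 8.3 and 8.15 in MC38r against 5.21, 5.08 and 5.37 in MC38, where 1 array was above background. It was 7.56-fold higher as fitted (adjusted p = 2.7e-07), and its other measured probes rose by 1.07 and 2.81 on the log2 scale. Fgf21, a stress-induced hormone, was at least 2.35-fold higher (adjusted p = 2e-04), while Fgf7, which shares its epithelial receptor with Fgf10, was 2.51-fold lower (10.47 ± 0.18 in MC38r, 11.8 ± 0.12 in MC38, adjusted p = 5.3e-05).

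PDGF and VEGF chains moved singly. Pdgfb was at least 2.09-fold higher (adjusted p = 1.6e-05) and Pdgfc 3.29-fold lower (adjusted p = 2.6e-05), while Pdgfa stood at 10.72 ± 0.27 in MC38r and 10.97 ± 0.22 in MC38 and did not pass (adjusted p = 0.27). Vegfd, the lymphatic growth factor listed on the array as Figf, had 5.41, 4.73 and 5.01 in MC38r, above background on 1 array, against 9.03, 9.86 and 9.11 in MC38. It was 19.5-fold lower as fitted (adjusted p = 7.9e-07). That size depends on the background treatment, with 10.1-fold at an offset of 50 and 33.1-fold with no further background correction. Vegfc was at least 1.73-fold lower (adjusted p = 0.00022) and Vegfb, a ligand of the Flt1 product, was 2.45-fold lower (adjusted p = 0.00054). Vegfa, the main ligand of that receptor, stood at 8.57 ± 0.28 in MC38r and 8.66 ± 0.15 in MC38 (adjusted p = 0.69).

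Neurotrophic ligands of the RET pathway were lost from detection. Gdnf had 4.51, 4.44 and 4.42 in MC38r, none above background, against 8.7, 8.47 and 8.84 in MC38, at least 10.8-fold lower (adjusted p = 2.3e-08). Artemin, Artn, was at least 7.92-fold lower (5.04 ± 0.05 against 8.23 ± 0.08, adjusted p = 6e-08), and 2 dimmer Artn probes had log2 changes of -2.72 and -1.21. Pleiotrophin, Ptn, a heparin-binding growth factor, was at least 3.15-fold lower (adjusted p = 7.8e-07), while midkine, Mdk, did not pass (log2 change 0.06). The receptor Ret was not detected in either line.

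Kitl, the ligand of KIT, was 2.88-fold lower (adjusted p = 3.3e-05). Of 5 mast cell and progenitor markers, Cpa3, Mcpt4, Cma1 and Fcer1a were detected on no array. The remaining marker, Cd34, was detected on every array and did not pass (8.49 ± 0.34 in MC38r, 8.12 ± 0.14 in MC38, adjusted p = 0.12). The list's summed deposited signal, which includes Cd34, was 286 to 428 on MC38r arrays and 231 to 313 on MC38 arrays. Igf2 was at least 1.5-fold lower (adjusted p = 0.00058), Angpt1 at least 1.39-fold lower (adjusted p = 0.00012) and protein S, Pros1, 2.13-fold lower as fitted (adjusted p = 0.00023). Csf1 (1.53-fold), Angpt2 (1.46-fold) and Bdnf (1.32-fold) were higher, with adjusted p of 0.018, 0.017 and 0.026, and each missed the threshold when some single arrays were left out. Csf1 did so without MC38r replicate 2 (adjusted p = 0.075) or MC38 replicate 1 (0.067). Angpt2 did so without MC38r replicate 2 (0.068), without MC38 replicate 3 (0.061), without both deviating arrays (0.056) and with series values (0.062). Bdnf did so when any 1 of the MC38r arrays, or MC38 replicate 1 or 3, was left out (0.055 to 0.091) and with the replicate block (0.065). The other measured Bdnf probes had log2 changes of 0.19 and 0.26, against 0.41 for the brightest.

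**Figure D4:**
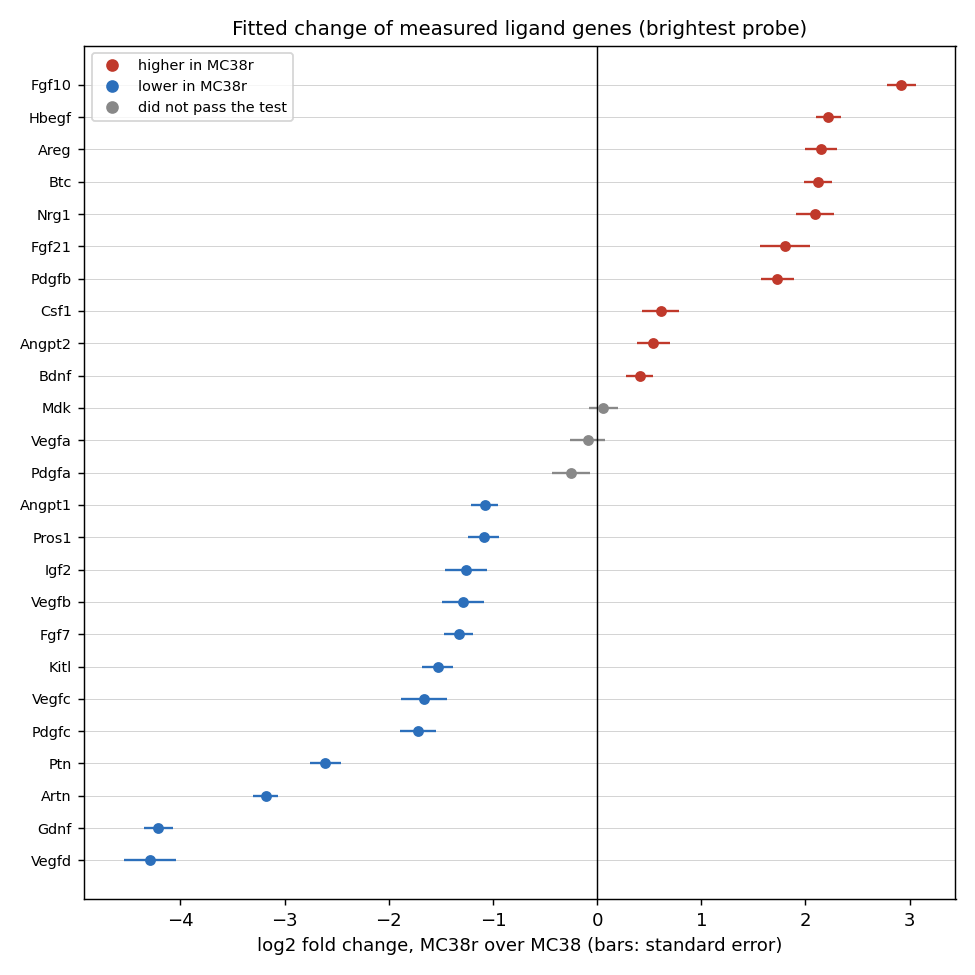
Fitted log2 fold change of MC38r over MC38 (horizontal axis, bars show the standard error) of the 25 measured ligand genes, by brightest probe, in order of size. Fgf10, Hbegf, Areg, Btc and Nrg1 lie at the positive end (2.09 to 2.92), and Artn, Gdnf and Vegfd at the negative end (-3.18 to -4.29).

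Adaptors and effectors that act below the receptors also changed in both directions. Of 30 listed genes, 19 were measured, 4 rose and 7 fell, where 28.6% of all genes rose and 27.3% fell by the same choice of probe (55.8% in either direction). The median log2 change was -0.31, against 0.03 over all genes. Irs2, the docking protein of insulin and IGF1 receptors, had 7.64, 8.77 and 8.55 in MC38r against 5.48, 4.87 and 5.92 in MC38, 7.45-fold higher as fitted (adjusted p = 6.8e-05). Ngef, the exchange factor ephexin that acts downstream of Eph receptors, was 2.56-fold higher (8.89 ± 0.24 in MC38r, 7.53 ± 0.18 in MC38, adjusted p = 0.00011), and its second probe rose by 1.4 on the log2 scale. The exchange factor gene Sos2 was at least 1.27-fold higher (adjusted p = 0.021), a call lost without MC38r replicate 1 or 3, without MC38 replicate 3, or without both deviating arrays (adjusted p of 0.05 to 0.083).

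Plcg2, a phospholipase C recruited to phosphotyrosines, had 5.25, 5.44 and 5.44 in MC38r against 8.73, 8.52 and 9.08 in MC38, 10.6-fold lower (adjusted p = 2.4e-07). Tiam1, a Rac exchange factor that binds Eph receptors and ephrins, was at least 7.58-fold lower (adjusted p = 3.1e-07). Gab1, the docking protein that carries MET and EGFR signals, was at least 4.43-fold lower (4.49 ± 0.12 against 7.39 ± 0.26, adjusted p = 6.2e-07). The common adaptors Grb2 and Shc1 and the phosphatase gene Ptpn11, none of which passed, changed by 0.07, -0.35 and -0.1 on the log2 scale and were chosen after their values were seen.

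Of 26 genes that restrain these receptors, 15 were measured, 5 rose and 5 fell, where 28.6% and 27.3% of all genes did, and the median log2 change was 0.14, against 0.03 over all genes. Errfi1, a feedback inhibitor that binds the EGFR kinase domain, had 13.33, 13.39 and 13.56 in MC38r against 11.08, 10.99 and 10.92 in MC38, 5.39-fold higher (adjusted p = 4.7e-07). Lrig1, which promotes degradation of EGFR family receptors, was 2.53-fold higher (adjusted p = 0.00022), and Socs3 was 1.73-fold higher (adjusted p = 0.0041). Lrig3, a relative of Lrig1, went the other way: it had 4.5, 4.42 and 4.48 in MC38r, none above background, against 9.11, 8.72 and 9.07 in MC38. It was at least 13.2-fold lower (adjusted p = 2e-08). Fgfrl1, an FGF receptor relative that lacks the kinase domain, was 3.05-fold lower (adjusted p = 1.1e-05), and the phosphatase Ptpn2 was 1.79-fold lower as fitted (adjusted p = 0.0022). The count of 5 rises was 3 without MC38r replicate 2 or 3, or MC38 replicate 1 or 3.

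Of 16 co-receptors and shedding enzymes, 9 were measured, 1 rose and 6 fell, where 28.6% and 27.3% of all genes did. The median log2 change was -0.71, against 0.03 over all genes. Nrp1, the neuropilin co-receptor of VEGF and semaphorins, had 7.23, 6.93 and 7.2 in MC38r against 10.08, 10.58 and 10.13 in MC38, 8.85-fold lower (adjusted p = 5e-07), and its second probe fell by 3.09 on the log2 scale. The heparan sulphate proteoglycan syndecan 4, Sdc4, was 5.51-fold lower (adjusted p = 3.1e-06). Adam17, the metalloprotease that releases EGFR ligands from the cell surface, had 7.13, 7.27 and 7.3 in MC38r against 8.39, 8.56 and 8.43 in MC38, 2.33-fold lower (adjusted p = 4e-05), and its second probe fell by 2.57 on the log2 scale. Rhbdf2, a pseudoprotease that escorts ADAM17 to the surface, was at least 1.15-fold higher (adjusted p = 0.00086). The count of 1 rise was 2 without MC38r replicate 1. The EGFR ligand transcripts that rose did so beside a lower Adam17.

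Receptor kinases outside the name rule were few: of 12 listed genes, 3 were measured. The Wnt co-receptor gene Ror2 had 4.51, 4.34 and 4.32 in MC38r, none above background, against 6.68, 6.26 and 6.7 in MC38, at least 2.47-fold lower (adjusted p = 3.5e-06). Ryk, another Wnt-binding member, was 1.33-fold lower (adjusted p = 0.02), a call lost without MC38r replicate 1 or 2, or MC38 replicate 3 (adjusted p of 0.055 to 0.063). Lmtk2 was 1.46-fold higher (adjusted p = 0.012).

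The authors' deposited table of gene comparisons, which stops at an unadjusted p of 0.05, holds 17 of the 53 member genes, 9 with a ratio of MC38r over MC38 above 1 and 8 with a ratio below 1. For the 12 of these with a measured probe, the direction in the authors' deposited table was that of the brightest probe. In the authors' deposited table an adjusted p under 0.05 was given for 4 members: Ephb2 (ratio 1.79), Igf1r (1.77), Efna4 (0.611) and Egfr (0.605). The authors' deposited table also lists Epha3, Epha8, Ephb6, Erbb4 and Fgfr2, none of which had a measured probe here.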

How the data were processed

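Total RNA of 2 mouse lines was measured on Illumina bead arrays, 3 per line, grouped by the labels' source names. The authors' probe table came out of GenomeStudio 1.9.0 after quantile normalization, per the file headers. It holds linear intensity, with 35% to 35.1% of values below 0 on each array. The deposited detection value is a score, 1 minus the detection p-value. The authors' control signals are also intensity. The authors deposited a comparison with a linear ratio, its log2 value and p-values, whose test is not given in the sources used here, and gene values (the series matrix) of intensity type. The genome build is not given there either.

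Signals were background-corrected with nec of limma 3.58.1 (detection p-values, offset 16) in R 4.3.3, log2-transformed and quantile-normalized. Probes with detection p under 0.01 on at least 3 of 6 arrays were kept (13990), and lines were compared with limma (lmFit, eBayes), Benjamini-Hochberg over all kept probes, threshold 0.05. The fit was tested on simulated data. Where a line had no array above background, folds are "at least", the bright line's mean against the higher, per array, of the probe's own signal and the lowest signal above background. Alternatives covered background, normalization, offset, filter, probe choice, block, variance model, weights, series values and omitted arrays. For arrays the number of samples limits precision (median standard error 0.16). Named genes were all members, plus up to 3 rises and 3 falls per list. Members and lists were chosen with earlier results of these data known. Some genes are not reported here.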

Additional observations from a re-analysis of the deposited data

How the results depend on the processing

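Of the 19 member probes past the threshold, 16 stayed past it in every one of the 18 alternatives that could be fitted for them, and none changed sign. The exceptions were the bright Axl probe, Efna1 and Fgfr1, which also lost their calls when no filter was used (adjusted p of 0.08, 0.077 and 0.087). Probes that did not pass changed sign, with the range over single omitted arrays given for each: Efnb3 (-0.04 to 0.18) at -0.01 with cyclic loess, -0.04 without MC38r replicate 2, -0.02 without MC38r replicate 3 and -0.02 without MC38 replicate 3; Ephb4 probe 3840731 (-0.17 to 0.29) at -0.01 with cyclic loess, -0.1 without MC38r replicate 1 and -0.17 without MC38 replicate 3; the dim Axl probe (-0.28 to 0.06) at 0.06 without MC38 replicate 3; Vegfa (-0.25 to 0.02) at 0.02 without MC38r replicate 3; Mdk (-0.02 to 0.15) at -0.02 without MC38r replicate 1. When only probes above background on all 6 arrays were used, 1 member probe was lower instead of 9. That filter removes every probe not above background on each array, and the lower member probes it removed each missed at least 1 MC38r array. The counts became 4 lower ligands, 2 higher and 4 lower adaptors, 2 lower restraining genes, 0 higher co-receptor or shedding genes (limma, by construction, as Rhbdf2 was removed) and 1 lower kinase outside the rule. With 1 array left out, member probes ranged from 9 to 10 higher and from 7 to 10 lower, restraining genes from 3 to 6 higher, co-receptor and shedding genes from 1 to 2 higher, and kinases outside the rule from 1 to 2 lower. The deviations of same-numbered arrays had r of -0.46, -0.44 and 0.3. With 3 arrays per line, 1 deviating array in each sets much of this pattern, so it cannot decide whether the numbers pair the arrays. With the replicate block, 9 member probes were higher and 9 lower (the bright Axl probe lost its call, adjusted p = 0.074), 3 restraining genes were higher and 1 kinase outside the rule was lower. With both deviating arrays omitted, chosen after seeing the data, 10 member probes were higher and 11 lower. The choice of background treatment moved sizes more than calls. Series values, 1 per gene over all its probes, moved 7 named genes by over 1.5 times (Egfr to -0.73, Ephb2 to 0.84, Fgf10 to 2.22, Gdnf to -2.9, Artn to -2.18, Pdgfb to 0.9, Ptn to -1.87). An offset of 50 moved 18 probes (among them Egfr to -1.09, Ephb2 to 1.22, Lrig3 to -3.25, Vegfd to -3.34 and Plcg2 to -2.65). No further background correction moved 6 (among them Ephb2 to 2.47, Vegfd to -5.05 and Plcg2 to -4.04). The "at least" folds are bounds for the offset of 16 alone. With the offset of 50, falls as fitted that came under their bounds included Lrig3 (9.51-fold), Gdnf (7.89-fold), Artn (4.99-fold) and Tiam1 (4.96-fold). Gab1 (3.56-fold), Ptn (2.87-fold), Ror2 (2.33-fold), Egfr (2.13-fold) and Met (log2 change -0.58) did so too, as did the rises of Fgf21 (2.08-fold) and Pdgfb (1.97-fold). With series values, Gdnf (7.46-fold), Artn (4.53-fold), Tiam1 (log2 change -2.75) and Egfr (1.66-fold) lower and Pdgfb (1.87-fold) higher were under their bounds. Without the filter Sos2 (adjusted p = 0.077) and Csf1 (0.063) also lost their calls, and Ryk did with the replicate block (0.056). Signals near background limit the falls, which are lower bounds where the MC38r arrays were not above it.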
